A study of Bos taurus with 12 samples.

Results

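The nuclear genes of the respiratory chain and ATP synthase were compared between the epithelium and the intralobular stroma of the mammary gland of dry cows. Members were chosen by symbol alone: every probe set with exactly 1 gene symbol that begins NDUFA, NDUFB, NDUFC, NDUFS, NDUFV, UQCR or ATP5, or COX with a digit from 4 to 8, together with SDHA to SDHD and CYC1, while the assembly factors named NDUFAF were left out. This gave 103 of 24016 probe sets other than controls and 81 of 9155 gene symbols on the array. By complex, 38 of the genes belong to complex I, 4 to complex II, 9 to complex III, 13 to complex IV and 17 to complex V. Tested were the brightest 41.8% of probe sets, and 82 member probe sets of 75 genes were among them. The other 21 probe sets lay below that limit, and 6 genes (CYC1, NDUFS7, NDUFA8, COX6A2, COX6B2 and NDUFA4L2) had none that was tested. COX4I2, COX6B1 and COX8C had no probe set with 1 symbol here, and neither had any of the subunits encoded in mitochondrial DNA.

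Both captures came from 6 Holstein cows that were pregnant, not being milked, and biopsied 3 weeks before calving. Explants of every cow, and hence both groups, spent 2 h in culture medium that contained insulin, hydrocortisone and the thymidine analogue 5-bromo 2-deoxyuridine (BrdU), so no uncultured or hormone-free tissue enters the comparison. Epithelium and stroma were lifted by laser from stained frozen sections, with lysates of 2 slides pooled for an epithelial sample and of 4 slides for a stromal one. Stroma between the ducts and alveoli of a lobule holds fibroblasts, vessels, nerves and immune cells. By the methods, vessels and visible immune cells were avoided in order to enrich fibroblasts. The labels give lactation number 3 for cow 1, 2 for cow 2 and 1 for each of cows 3 to 6, although the methods call the cows multiparous. RNA was amplified from a small input and hybridized to the Affymetrix Bovine GeneChip, with 6 arrays per tissue. Values are log2 intensities after RMA, a method that corrects background, normalizes and summarizes the probes of a set. Differences are stroma minus epithelium within a cow, so that a negative value stands for a higher level in epithelium. In captured tissue, fewer cells of a type and less RNA per cell cannot be told apart.

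Oxidative phosphorylation takes place in the inner mitochondrial membrane. Complex I (NADH dehydrogenase) and complex II (succinate dehydrogenase) pass electrons to ubiquinone, complex III (the cytochrome bc1 complex) passes them to cytochrome c, and complex IV (cytochrome c oxidase) passes them to oxygen. Complexes I, III and IV pump protons, and complex V (ATP synthase) uses the proton gradient to make ATP. Apart from complex II, each complex joins subunits from nuclear and from mitochondrial DNA. In the mammary gland, secretory epithelium becomes rich in mitochondria as lactation begins.

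The captures carried the markers of their tissues. Of 11 luminal epithelial markers tested, 10 were higher in epithelium, and the mean level of that list ran from 7.42 to 8.44 over the epithelial arrays and from 4.34 to 5.79 over the stromal ones. All 9 tested fibroblast markers, all 4 tested endothelial markers and both tested plasma cell markers (IGHM and JCHAIN) were higher in stroma. So were PDGFRB of 4 pericyte and smooth muscle markers and FABP4, the only adipocyte marker tested. Of 2 skeletal muscle markers, CKM, a muscle creatine kinase, was higher in stroma, and MYH7, with a difference of 0.16, did not pass. Fibroblast markers averaged 9.72 to 10.5 in stroma and 3.39 to 5.90 in epithelium. None of 5 myoepithelial, 3 macrophage and 3 T and NK cell markers passed, and no erythrocyte marker was among the tested probe sets. The brightness limit used the mean over both tissues, so a marker could be tested through the tissue where it was high. CDH5, for example, averaged 2.33 in epithelium, below the lowest mean tested, 3.57. With no filter, 9 of 10 fibroblast, 4 of 7 endothelial, 2 of 4 plasma cell and 1 of 4 adipocyte markers were higher in stroma. Spiked-in polyadenylated control RNAs averaged 3.07 to 6.58 on the epithelial arrays. On the stromal arrays of cows 1 to 3 they averaged 4.15 to 7.10, and on those of cows 4, 5 and 6 they averaged 9.07, 11.0 and 10.4. Arrays of one tissue correlated with each other at 0.840 to 0.881 on average in epithelium and at 0.726 to 0.821 in stroma, and the gap between the 3′ and 5′ probe sets of GAPDH ranged from 0.93 to 4.75 over the arrays. The part of other cell types, control RNA and RNA quality in the results was not tested, and results are therefore also given without cows 4, 5 and 6.

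Most subunit genes had a lower mean in stroma, but few differed beyond the spread between cows. Of the 75 tested genes, 60 (80.0%) had a lower mean in stroma, against 60.0% of all tested genes. The median difference was -0.49 on the log2 scale over the subunits and -0.20 over all tested genes. In a limma fit with cow as a block and Benjamini-Hochberg adjustment over all tested probe sets, 1 subunit gene passed at an adjusted p of 0.05, ATP5MC2, which was higher in epithelium, and none was higher in stroma. Over all tested genes, 4.62% were higher in epithelium and 4.48% in stroma. Counted by probe set, 2 members were higher in epithelium, ATP5MC2 and the dimmer of the probe sets of ATP5MG, against 4.76% of all tested probe sets, and 0 were higher in stroma, against 4.54%. The share of subunits that passed was thus not above the background share. The dimmer ATP5MG probe set was tested through its epithelial level, as given below. At an unadjusted p of 0.05, 15 of the 75 genes (20.0%) were higher in epithelium and 0 in stroma, against 14.6% and 8.39% of all tested genes. A lower level in the stroma of all 6 cows was seen for 12 genes (16.0%), against 9.59% of all tested genes, and a higher level in the stroma of all 6 cows for 0, against 6.99%. The groups did not overlap for 2 genes (2.67%), SDHC and ATP5F1C, against 2.97% of all tested genes.

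The smallest difference that passed anywhere on the array was 1.25 in favour of epithelium and 1.30 in favour of stroma. The distribution of the subunits was shifted left of that of all genes through its middle, while its ends were shorter, since all tested genes ran from -4.75 to 7.57 and the subunits from -1.85 to 1.36.

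**Figure D1:**
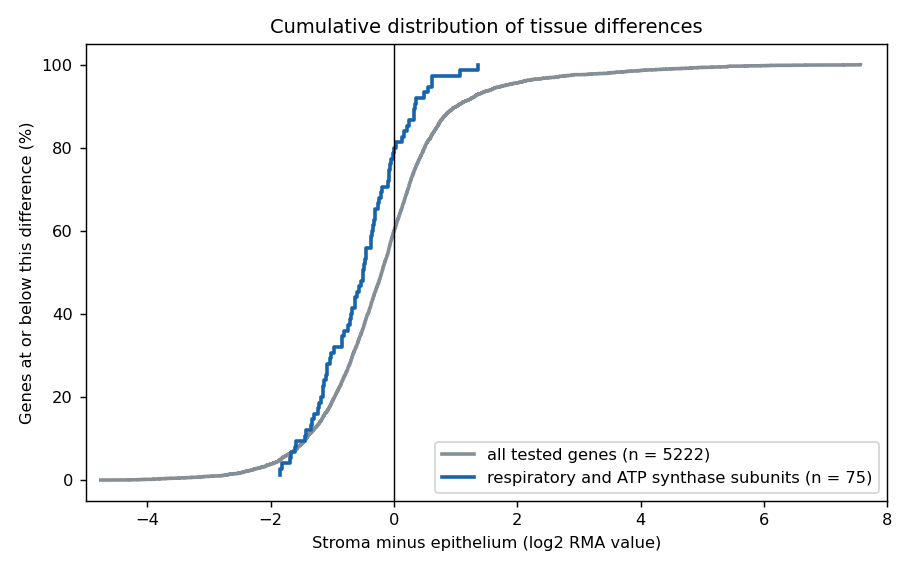
Cumulative share of genes (percent, vertical axis) at or below each stroma minus epithelium difference (log2 RMA value, horizontal axis) for the 75 tested subunit genes and for all 5222 tested genes. The subunit curve reaches 80.0% at a difference of 0, where the curve of all tested genes reaches 60.0%.

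The values depended on how the arrays were scaled and on the brightness limit, and the median over all tested genes itself lay below 0. When the median of the tested probe sets was set equal on all arrays (centring), 53 of the 75 subunits (70.7%) had a lower mean in stroma, against 51.2% of all tested genes, and the medians were -0.32 and -0.02. After that centring no subunit passed, and the calls over all probe sets split into 361 for epithelium and 516 for stroma, against 477 and 455 as deposited. Without cows 4, 5 and 6 the median of the subunits was -0.58, against -0.13 over all tested genes. With no filter, 77.8% of the subunits had a lower mean in stroma (median -0.47), against 49.7% of all genes (median 0.006). Among the brightest 5000 probe sets the shares were 87.9% (median -0.65) and 66.4% (median -0.32). Subunits were brighter than genes at large, with medians per epithelial array of 6.62 to 7.06 against 5.38 to 5.66. Genes of like brightness were not compared.

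The median difference ran from -0.79 to -0.04 over the complexes as measured. The medians over genes were -0.46 for complex I (28 of 35 genes with a lower mean in stroma), -0.79 for complex II (4 of 4), -0.04 for complex III (5 of 8), -0.67 for complex IV (9 of 11) and -0.69 for complex V (14 of 17). Complex III alone had a median that changed sign, to 0.14 after centring, 0.02 after quantile normalization again and 0.03 without cow 1, while the medians of the other complexes stayed below 0 in each of the alternatives run. The median of complex IV ran from -0.92 without cow 3 to -0.36 without cow 5, so the order of the complexes is not fixed. Relative to the median of all tested genes, complex III was thus not lower in stroma. These medians are descriptions of the genes measured, and no difference between complexes was tested.

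The cows were less alike than the medians over cows show. Over all 75 subunits the median within a cow was -0.48, -0.52, -0.67, -0.29, -0.48 and -0.08 in cows 1 to 6. Over all tested genes it was -0.21, -0.03, -0.10, -0.23, -0.26 and -0.20. In cow 6 the subunits therefore lay above the genes at large, and in cow 4 only slightly below them. The number of subunits lower in stroma was 60, 49, 53, 45, 49 and 44 of 75 in the same order. Complex I was near 0 in cow 4 at -0.01 and above it in cow 6 at 0.12. Complex V was below 0 in all 6 cows, from -1.13 in cow 3 to -0.22 in cow 6. Complex II was also, from -1.40 in cow 2 to -0.10 in cow 4. The median of all tested genes was below 0 in all 6 cows as well. It was -0.23 in cow 4, below complex II, and -0.20 in cow 6, about level with complex V. Complex IV ran from -1.12 in cow 5 to 0.13 in cow 6. Complex III was at 0.01, 0.45 and 0.25 in cows 1 to 3 and at -0.43, -0.02 and -0.16 in cows 4 to 6. The values of cows 1 and 5 were close to 0. The stromal arrays of cows 4 to 6 had the high control RNA, and a link with it was not tested.

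**Figure D2:**
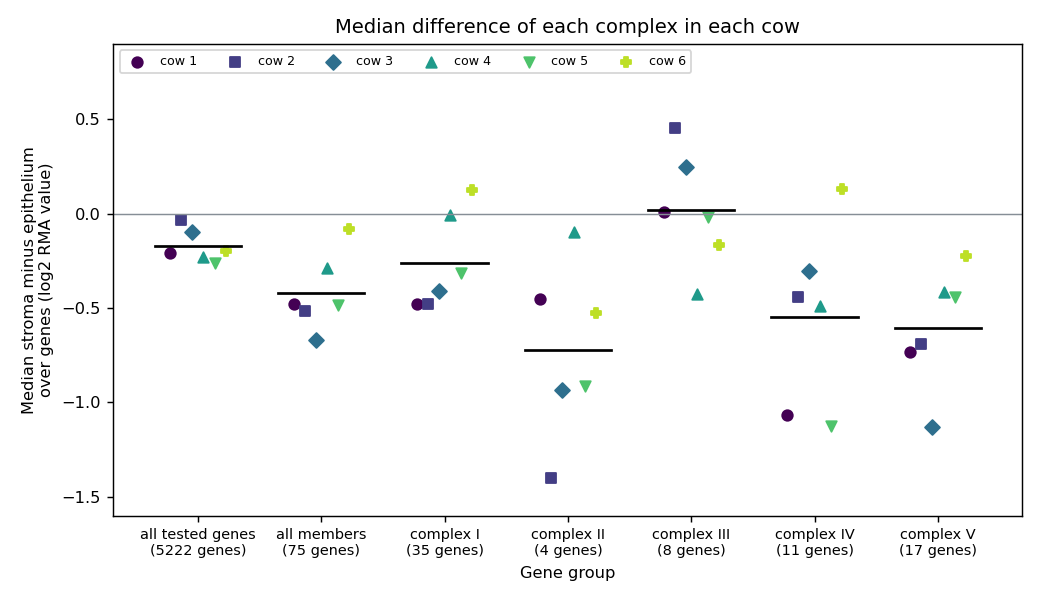
Median stroma minus epithelium difference (log2 RMA value, vertical axis) over the genes of each group, 1 point per cow, with a horizontal line at the mean of the 6 cows. Complexes II and V lie below 0 in all 6 cows, as does the median of all tested genes. Complex III lies on both sides of 0, from -0.43 to 0.45.

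**Figure D3:**
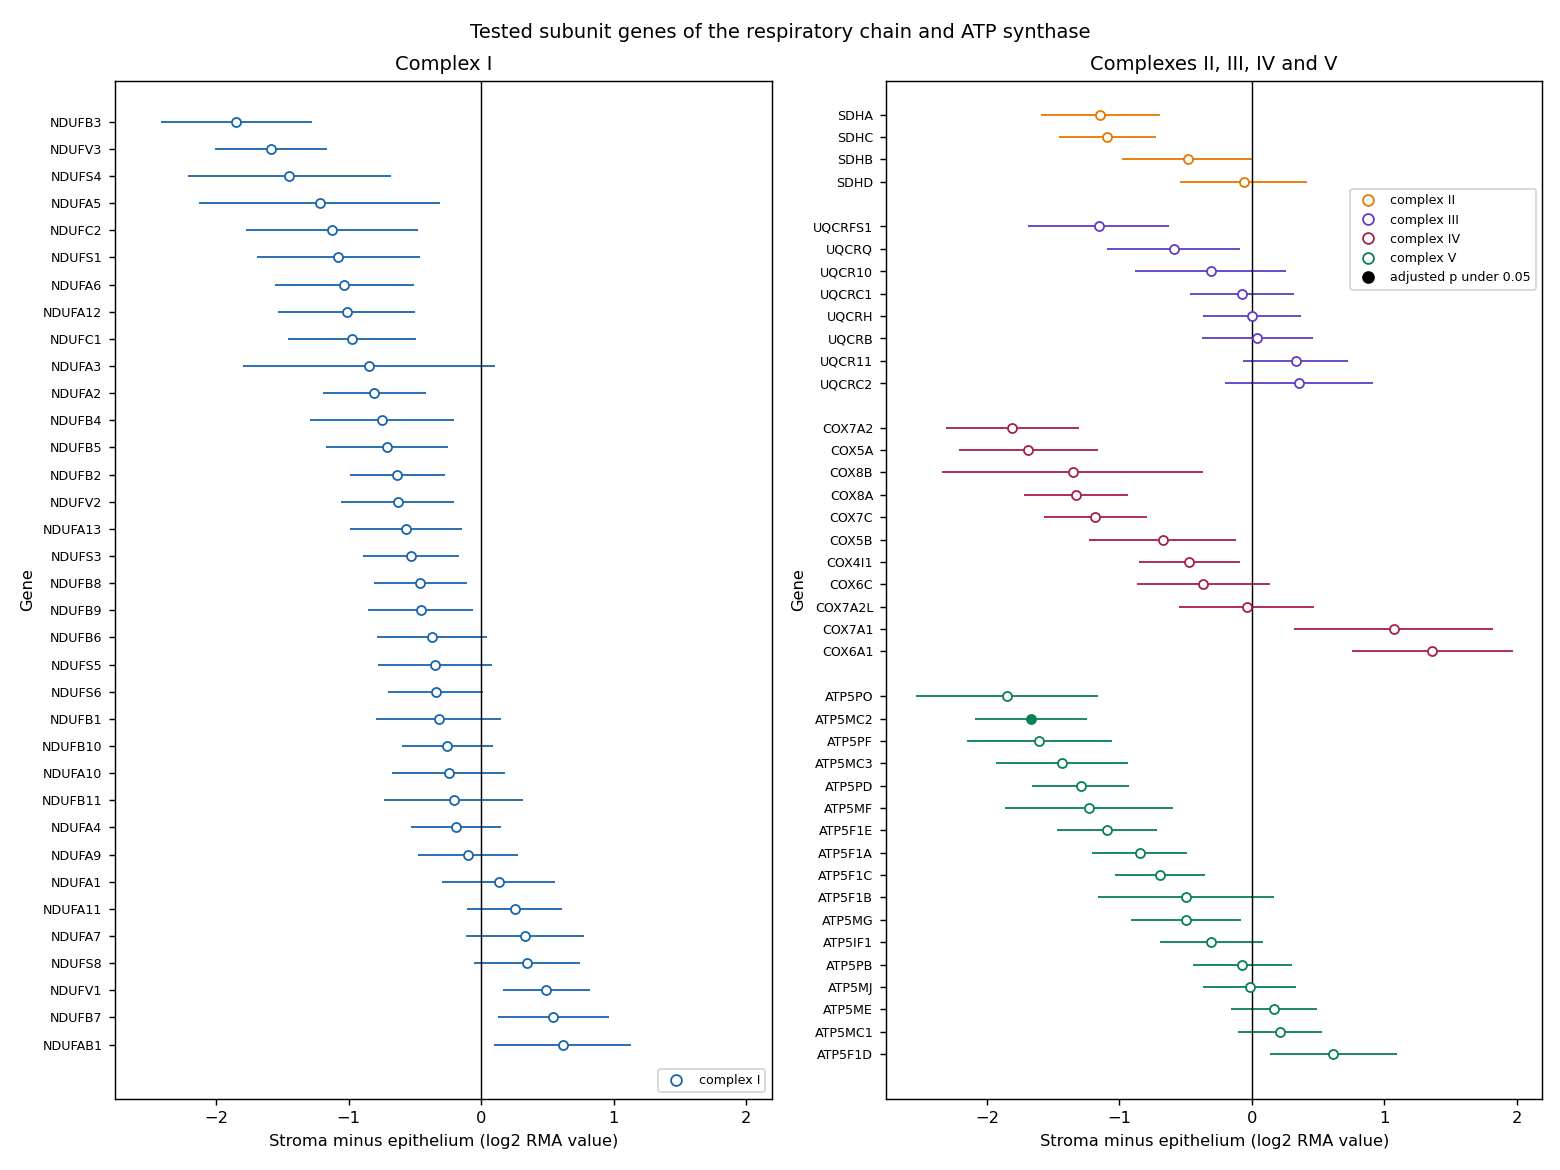
Stroma minus epithelium difference (log2 RMA value, horizontal axis) of each of the 75 tested subunit genes (vertical axis, ordered within a complex), with bars of 1 standard error from limma and a filled point for an adjusted p under 0.05. ATP5MC2 at -1.67 is the only filled point, and 60 of 75 points lie below 0.

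Among the electron entry complexes, complex I is the largest and is built of a matrix arm, which oxidizes NADH, and a membrane arm, which pumps protons. The 15 tested genes of the matrix arm had a median difference of -0.63 and the 19 of the membrane arm a median of -0.46. No complex I gene passed as tested, and 2 of 35 reached an unadjusted p of 0.05, NDUFV3 and NDUFB3, both higher in epithelium. That is a smaller share than the 14.6% of all tested genes that were higher in epithelium at this p.

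NDUFV3, an accessory subunit beside the NADH-binding site, came closest. Epithelium of cows 1 to 6 measured 4.72, 6.83, 5.96, 6.50, 5.03 and 4.73, and stroma 4.24, 4.36, 5.70, 4.25, 2.91 and 2.79. Stroma was the lower tissue in all 6 cows, although the groups overlapped because stroma of cow 3 lay above 3 of the epithelial arrays. The difference was -1.59 (SE 0.43), with an adjusted p of 0.0512 from limma, and its size depends on background because the stroma of cows 5 and 6 lay below the array medians. It passed without cow 3, at an adjusted p of 0.0415, and at 0.0460 in a fit of gene averages, in which each gene was tested once.

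NDUFB3, an accessory subunit of the membrane arm, had the largest difference of the complex. It ran from 5.80 through a median of 7.25 to 8.41 in epithelium and from 2.36 through 5.78 to 7.14 in stroma, with a difference of -1.85 (SE 0.57) and an adjusted p of 0.0822. Cow 4 was the exception, with 6.47 in its epithelium against 7.14 in its stroma, and without that cow the difference was -2.35 (adjusted p = 0.0329). NDUFS4, an accessory subunit needed for a complete matrix arm, was even among epithelial arrays (6.70 to 8.36) and scattered among stromal ones (3.23 to 8.83). Its difference was -1.45 (SE 0.76, adjusted p = 0.294), and it was lower in the stroma of 5 of 6 cows. NDUFA5 of the matrix arm scattered more widely still, from 2.99 in cow 4 to 10.44 in cow 5 over the stromal arrays, and its difference of -1.22 had a standard error of 0.91.

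The core subunits of complex I carry the flavin and the iron-sulfur clusters, and 5 of them were tested with mixed signs. NDUFS1, the largest core subunit, had a difference of -1.08 (SE 0.61), NDUFV2 one of -0.63 (SE 0.43) and NDUFS3 one of -0.53 (SE 0.36). NDUFS3 was below epithelium in the stroma of every cow, but by less than 0.05 in 2 of them. NDUFV1, which binds NADH and flavin, and NDUFS8, which carries iron-sulfur clusters near ubiquinone, had means on the other side, at 0.49 (SE 0.33) and 0.35 (SE 0.40). The adjusted p values of these core subunits lay between 0.330 and 0.649, and NDUFV1 was dim, with a mean of 3.45 in epithelium. NDUFAB1, the mitochondrial acyl carrier protein, had a difference of 0.62 (SE 0.52, adjusted p = 0.516), from a dim epithelial mean of 3.41. It was higher in the stroma of 3 cows and lower in that of the other 3, and the value rests on cow 6, without which it was 0.20.

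Complex II is the link between the citrate cycle and the chain, and all 4 of its genes were tested. SDHC, which anchors the complex in the membrane, was among the brighter subunits and had the cleanest separation. Epithelium of cows 1 to 6 measured 9.33, 9.26, 9.13, 9.51, 9.69 and 9.02, and stroma 8.86, 7.92, 7.62, 8.43, 7.73 and 8.83. Each stromal array lay below each epithelial array. The difference of -1.09 (SE 0.37, 2.13-fold) had an adjusted p of 0.109, and one of 0.0435 with cow as a random block. SDHA, the flavoprotein that oxidizes succinate, was lower in stroma in each of 6 cows, with 6.39 to 7.32 in epithelium and 4.31 to 6.61 in stroma. Its difference was -1.14 (SE 0.45, adjusted p = 0.163). SDHB, the iron-sulfur subunit, and SDHD, the other anchor, were each lower in the stroma of 3 cows and higher in that of the other 3, with differences of -0.48 (SE 0.50) and -0.06 (SE 0.48). The interval of the difference for SDHD ran from -1.15 to 1.03, so a change of up to about that size in either direction was not excluded.

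Complex III stood closest to 0. UQCRH, the hinge protein that helps cytochrome c bind, averaged 9.15 ± 0.53 (SD, n = 6) in epithelium and 9.15 ± 0.26 (SD, n = 6) in stroma, with an interval of the difference from -0.84 to 0.84. UQCRB averaged 6.88 ± 0.33 and 6.92 ± 0.82, UQCRC1, a core protein, 4.45 ± 0.54 and 4.38 ± 0.46. The Rieske iron-sulfur protein UQCRFS1 was the exception. It ran from 5.72 through 6.96 to 7.76 in epithelium and from 4.62 through 5.46 to 6.80 in stroma, was lower in the stroma of 5 of 6 cows, and differed by -1.16 (SE 0.53, adjusted p = 0.230). Without cows 4, 5 and 6 its difference was -0.11. UQCR11 and UQCRC2, the other core protein, had higher means in stroma, at 0.33 (SE 0.40) and 0.36 (SE 0.56). The second tested probe set of UQCRC2 had a mean of the opposite sign, at -0.28 (SE 0.73), and no direction is read for that gene. UQCRQ had a difference of -0.59 (SE 0.50), to which the single epithelial array of cow 3 at 7.59 contributed, since the other epithelial arrays lay between 3.69 and 4.55.

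Complex IV held the largest contrasts within a complex, from -1.81 for COX7A2 to 1.36 for COX6A1. Of its 11 tested genes, 4 were higher in epithelium at an unadjusted p of 0.05 (COX7A2, COX8A, COX5A and COX7C), each lower in the stroma of all 6 cows, and none passed the adjusted threshold. COX7A2, the widely expressed form of subunit 7a, had levels of 8.81, 9.15, 8.46, 9.47, 8.18 and 8.63 in the epithelium of cows 1 to 6 and 7.43, 7.83, 7.62, 8.98, 4.67 and 5.34 in stroma. The stroma of cows 5 and 6 was far below that of the other cows. The difference was -1.81 (SE 0.50, 3.50-fold, adjusted p = 0.0573), and without cows 5 and 6 it was -1.01 (adjusted p = 0.225).

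COX5A, a subunit on the matrix side, ran from 7.93 through 8.27 to 9.58 in epithelium and from 5.39 through 6.94 to 8.14 in stroma. Its difference was -1.69 (SE 0.53, 3.22-fold, adjusted p = 0.0841), and it passed without the cow block at an adjusted p of 0.0343. COX8A, the widely expressed form of subunit 8, differed by -1.32 (SE 0.39, adjusted p = 0.0721), with 6.94 to 7.77 in epithelium and 4.88 to 6.96 in stroma. Only the stromal array of cow 4 reached the epithelial range. COX7C differed by -1.18 (SE 0.39, adjusted p = 0.100). COX4I1 and COX5B, which sit beside the catalytic core, were bright in both tissues, COX4I1 with means of 9.43 in epithelium and 8.96 in stroma and COX5B with 9.54 and 8.87. Their differences of -0.47 (SE 0.38) and -0.67 (SE 0.56) were small beside their stromal spread, where cow 5 gave the lowest value of each, 7.46 and 6.43.

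Only 2 genes of complex IV had a higher mean in stroma. COX6A1, the widely expressed form of subunit 6a, had levels of 7.52, 7.65, 9.31, 8.79, 6.47 and 7.89 in epithelium and 8.64, 7.46, 9.48, 11.92, 10.29 and 8.02 in stroma. It was higher in the stroma of 5 of 6 cows, mainly through cows 4 and 5. The difference was 1.36 (SE 0.61, adjusted p = 0.217), it was 0.37 without cows 4, 5 and 6, and the name of the probe set marks probes shared between transcripts. COX7A1, the muscle form of subunit 7a, was higher in the stroma of 3 cows and lower in that of the other 3, with a mean difference of 1.07 (SE 0.75, adjusted p = 0.430). COX8B, the muscle form of subunit 8, was even in epithelium (8.98 to 9.78) but ran from 2.37 in cow 5 to 10.57 in cow 6 over stroma. Its other probe set, which was not tested, had values from 1.82 to 3.00 over all 12 arrays.

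**Figure D4:**
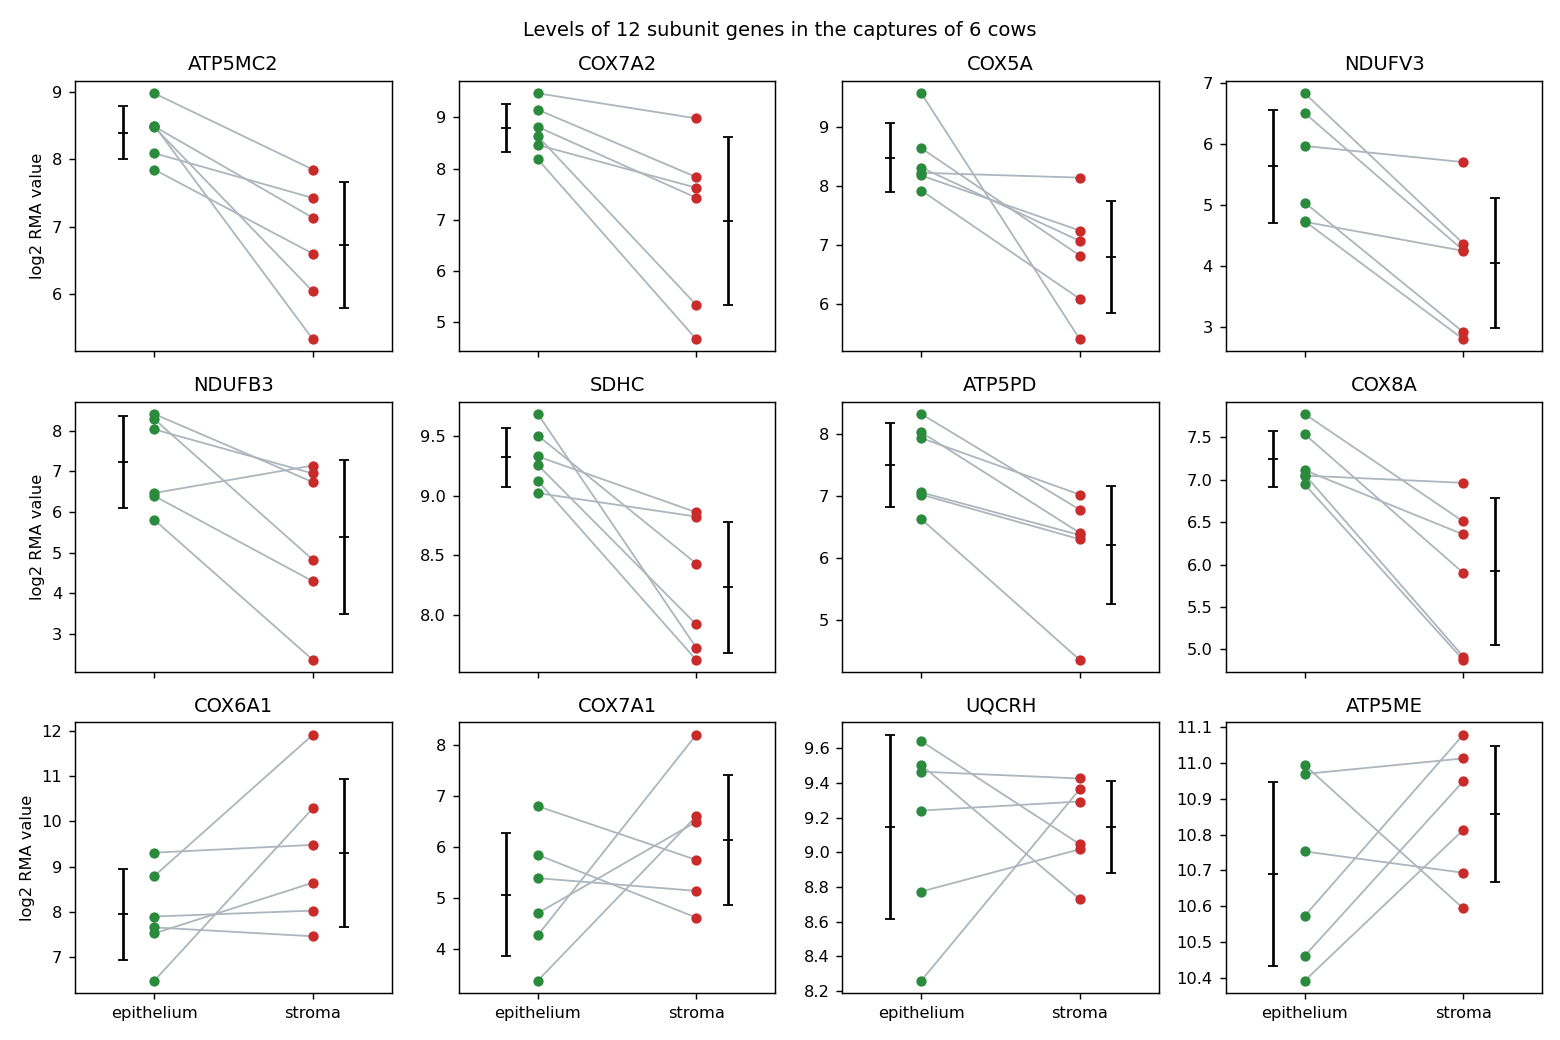
Level (log2 RMA value, vertical axes with a separate scale per panel) of 12 subunit genes in the epithelium and stroma of 6 cows, with a line joining the captures of a cow and bars at the mean ± 1 SD. ATP5MC2 and SDHC are lower in the stroma of all 6 cows, SDHC without overlap, while the lines of UQCRH and ATP5ME cross within a narrow range.

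Complex V makes ATP in its F1 head, which is driven by a rotating ring of c subunits and held still by a peripheral stalk. The median differences were -0.69 for the 5 genes of the head and central stalk, -1.43 for the 3 genes of the c ring, -1.45 for the 4 of the peripheral stalk and -0.26 for 4 other membrane subunits. This grouping was made after the values had been seen. Of the 17 genes, 7 reached an unadjusted p of 0.05, all higher in epithelium, and 1 passed the adjusted threshold. Over all tested genes, 14.6% reached that unadjusted p in favour of epithelium and 4.62% passed in that direction.

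ATP5MC2, which encodes a c subunit of the ring, was higher in epithelium. Epithelium of cows 1 to 6 measured 7.85, 8.48, 8.98, 8.50, 8.09 and 8.49, and stroma 6.60, 6.04, 7.85, 5.33, 7.43 and 7.13. Each cow had the lower level in stroma, and stroma of cow 3 just reached the lowest epithelial array. The difference was -1.67 (SE 0.42, 3.18-fold), with an adjusted p of 0.0416 from limma. The call was lost after centring (0.0730), without a filter (0.0573) without cow 1, 2, 3, 4 or 6 (0.0665 to 0.113), without cows 5 and 6 together (0.0730) and without cows 4, 5 and 6 together (0.193). ATP5MC3, another gene for a c subunit, differed by -1.43 (SE 0.50, adjusted p = 0.118) and was lower in the stroma of 4 cows. ATP5MC1, the third, lay just above the limit of the tested probe sets, at 3.51 ± 0.43 (SD, n = 6) in epithelium and 3.72 ± 0.28 (SD, n = 6) in stroma, with a difference of 0.21 (SE 0.32).

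In the peripheral stalk, 3 of 4 genes had large differences and ATP5PB had almost none. ATP5PO, the protein that joins the stalk to the head, had the largest difference of the tested subunits, just ahead of NDUFB3, at -1.85 (SE 0.69, 3.61-fold, adjusted p = 0.141). It ran from 5.72 through 6.66 to 7.67 in epithelium and from 2.71 through 5.13 to 6.86 in stroma, and cow 5 alone was higher in stroma, at 6.86 against 5.72. Without cow 5 it passed at an adjusted p of 0.0452. ATP5PF differed by -1.61 (SE 0.55, adjusted p = 0.112), with cow 4 the exception at 8.33 in stroma against 7.66 in epithelium. ATP5PD had the lower level in stroma in all 6 cows, from 6.62 to 8.31 in epithelium and 4.35 to 7.02 in stroma, and differed by -1.29 (SE 0.36, adjusted p = 0.0607). ATP5PB, subunit b, averaged 7.56 ± 0.52 (SD, n = 6) in epithelium and 7.49 ± 0.38 (SD, n = 6) in stroma.

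In the F1 head, ATP5F1A and ATP5F1B encode the alpha and beta subunits that form the catalytic sites. ATP5F1A differed by -0.85 (SE 0.36, adjusted p = 0.196), and all its stromal arrays lay within 6.93 to 7.54 while the epithelial ones ran from 7.45 to 8.86. ATP5F1B differed by -0.50 (SE 0.66), with stroma from 5.37 in cow 2 to 10.00 in cow 4. ATP5F1C, the gamma subunit of the rotating shaft, was 7.62, 7.96, 8.25, 7.49, 7.70 and 7.84 in epithelium and 7.21, 6.38, 7.38, 7.08, 7.22 and 7.44 in stroma. The tissues did not overlap, yet the difference was -0.69 (SE 0.34) and its adjusted p was 0.258. ATP5F1E, the epsilon subunit, was also below epithelium in all 6 cows, at -1.09 (SE 0.38, adjusted p = 0.116). ATP5F1D, the delta subunit, had the largest mean in favour of stroma within complex V, 0.61 (SE 0.48, adjusted p = 0.479), while its second probe set was at -0.14 (SE 0.39). The inhibitor of the enzyme, ATP5IF1, was bright in both tissues, at 9.29 ± 0.28 (SD, n = 6) and 8.99 ± 0.84 (SD, n = 6).

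ATP5MG, a small membrane subunit, gave different answers by probe set. The dimmer probe set was 5.17, 5.24, 5.37, 4.49, 4.30 and 4.89 in epithelium and 3.52, 3.92, 4.13, 3.78, 2.85 and 1.89 in stroma, without overlap. Its difference of -1.56 (SE 0.39, 2.95-fold) had an adjusted p of 0.0392. The brighter probe set ran from 7.12 to 8.43 and from 6.38 to 8.36, with a difference of -0.49 (SE 0.41) and an adjusted p of 0.513. The call of the dimmer probe set was lost after centring (0.0606), without any single cow (0.0569 to 0.106), without cows 5 and 6 (0.145) and without cows 4, 5 and 6 (0.204). The fold also depends on background, because some of its stromal values lie below the array medians of 2.95 to 3.08. The mean of those stromal values lay below 3.57, the lowest mean over both tissues that was tested. This probe set was therefore tested through its epithelial level. With no filter it also passed.

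Other genes with several tested probe sets also differed among them. For NDUFA5 the differences were -1.22, -1.36 and -0.34, and for NDUFB2 they were -0.63 and -0.13. The probe sets of ATP5F1D and UQCRC2 had means of opposite sign, while those of ATP5F1B, at -0.50 and -0.24, had the same sign. A value for one of these genes therefore stands for its brightest probe set.

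**Figure D5:**
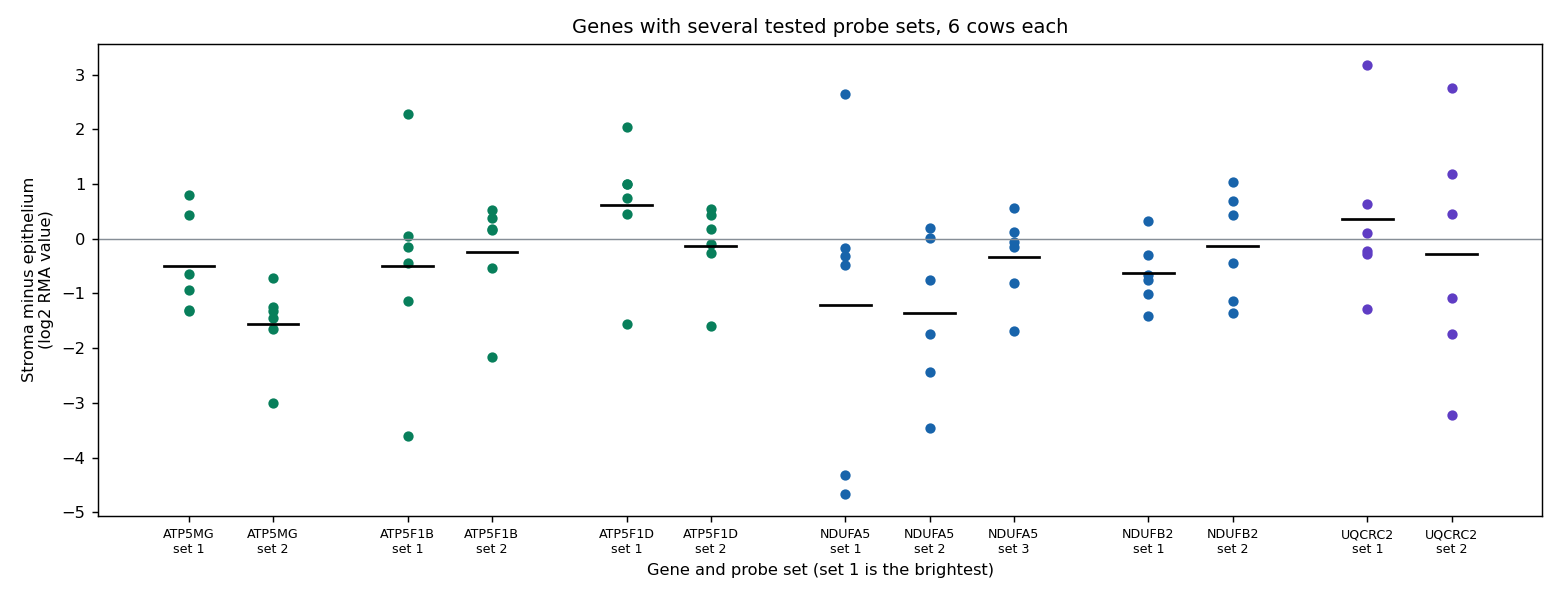
Stroma minus epithelium difference (log2 RMA value, vertical axis) of each tested probe set of 6 genes (horizontal axis, brightest set first), with 1 point per cow and a line at the mean of 6 cows. The second set of ATP5MG lies below 0 in all 6 cows, whereas both sets of UQCRC2 run from above 2 to below -1.

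Some subunits exist in forms with different tissue preference, and others have several related genes. Together 7 pairs of such forms or related genes were compared by the difference of their differences within cows. The pair COX7A1 and COX7A2 stood 2.88 ± 2.52 apart (SD, n = 6 cows), with COX7A1 shifted towards stroma relative to COX7A2 in 6 of 6 cows (two-sided exact permutation of signs, p = 0.0312, the lowest possible with 6 cows, and 0.109 adjusted over 7 pairs). The values ran from 0.09 to 7.23 over the cows. For ATP5MC1 against ATP5MC2 the gap was 1.88 ± 1.08 (SD, n = 6), also in 6 of 6 cows (exact p = 0.0312, adjusted p = 0.109), although ATP5MC1 was too dim to move far. ATP5MC2 and ATP5MC3 lay 0.23 ± 1.13 apart (SD, n = 6), COX8B and COX8A -0.03 ± 3.69 (SD, n = 6). Over the 5 pairs other than the first and ATP5MC1 against ATP5MC2, the exact p values ran from 0.125 to 0.969. COX7A2L, a relative of subunit 7a that helps respiratory complexes associate, was at -0.04 (SE 0.51), but it was lower in the stroma of cows 1 to 3 and higher in that of cows 4 to 6, in which control RNA was high. NDUFA4, a complex I symbol for a protein now placed with complex IV, differed by -0.19 (SE 0.34).

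The subunits varied more between cows in stroma than in epithelium, as genes at large did. The median SD was 0.55 in epithelium and 0.86 in stroma over the subunits, and 0.74 and 0.99 over all tested genes. The SD was larger in stroma for 54 of 75 subunits (72.0%), against 68.3% of all tested genes. SDs between tissues were not tested. NDUFC2, a membrane arm subunit, shows the pattern: epithelium ran from 7.55 to 9.23 and stroma from 3.83 in cow 5 to 9.58 in cow 6. At the other end, ATP5ME, the brightest member with a mean of 10.69 in epithelium and 10.86 in stroma, had SDs of 0.26 and 0.19.

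The 6 genes without a tested probe set were taken from a fit that also held the dimmer probe sets. The limit lay between ATP5MC1, with a mean of 3.61 over the 12 arrays, and CYC1, the cytochrome c1 gene, with 3.53. CYC1 averaged 3.53 in both tissues, and NDUFS7, a core complex I subunit, 3.46 and 3.51. COX6A2, the muscle form of subunit 6a, and NDUFA4L2, a hypoxia-linked relative of NDUFA4, stayed near or below the array medians, while COX6B2, a form known from testis, reached 6.01 in the stroma of cow 4 alone. NDUFA8, a complex I subunit of the intermembrane space, was the exception. It ran from 2.54 through 4.41 to 6.47 in epithelium and from 1.77 through 2.15 to 3.15 in stroma, with each cow lower in stroma. Its difference of -2.06 (SE 0.40) had an adjusted p of 0.0392 in that fit, where stroma was at or below background and the fold is therefore not exact.

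Around the complexes, 62 other genes of the pathway were tested, and 1 was higher in epithelium and 1 in stroma. Over all tested genes these shares were 4.62% and 4.48%, and the share among the pathway genes was not above them in either direction. COQ2, which attaches the side chain in ubiquinone synthesis, was 4.31 to 6.09 in epithelium and 2.61 to 3.38 in stroma, without overlap. All its stromal values lay below 3.57, the lowest mean tested, so the gene was tested through its epithelial level. It was higher in epithelium (difference -1.90, SE 0.34, adjusted p = 0.00921), with stroma at about the level of the array medians, so that the size of the difference depends on background. It passed in all but 1 of the 17 alternatives in which it was tested, and had an adjusted p of 0.102 in the other, without cows 4, 5 and 6. MTERF3, a regulator of transcription from mitochondrial DNA, was higher in the stroma of all 6 cows, with 5.04 to 7.40 in epithelium and 5.94 to 9.83 in stroma. Its difference of 1.66 (SE 0.42, 3.16-fold) had an adjusted p of 0.0436, which did not hold in 10 of 18 alternatives, among them the fit without the cow block (0.130), with adjusted p up to 0.355. The stroma of cow 6, with high control RNA, gave the highest value.

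By list, the 19 tested genes of mitochondrial import and cristae had a median difference of -0.81, with 16 lower in mean in stroma and none that passed. The mean level of this list was 5.94 to 6.53 over epithelial arrays and 5.35 to 5.79 over stromal ones, which did not overlap. Medians per array of the subunits did not overlap either, at 6.62 to 7.06 in epithelium and 5.78 to 6.29 in stroma. Those of all tested genes were 5.38 to 5.66 and 4.96 to 5.45. The import list includes TIMM8A, a chaperone of the intermembrane space, at -1.27 (SE 0.50, adjusted p = 0.165). It also includes IMMT, which shapes cristae, at -0.80 (SE 0.37, adjusted p = 0.238). All 8 tested carriers and channels, among them the VDAC pores and the adenine nucleotide carriers, had a lower mean in stroma, with a median of -0.42. After centring, 15 of the 19 import genes and 6 of the 8 carriers remained below 0. Of the assembly factors, 2 of 3 for complex I, 3 of 4 for complexes II and III, 5 of 9 for complex IV and 1 of 2 in the list for ATP synthase, which counts the member ATP5IF1, had a lower mean in stroma, and none passed. Over all tested genes 60.0% had a lower mean in stroma, and differences between lists were not tested. The largest difference among the assembly factors was that of COA5, which acts on complex IV, at -1.67 (SE 0.56, adjusted p = 0.109), lower in the stroma of all 6 cows. In the list of oxygen response and glycolysis, LDHA, the lactate dehydrogenase subunit favoured in glycolytic cells, and LDHB, the other subunit, had means of opposite sign. LDHA was higher in the stroma of all 6 cows, at 1.63 (SE 0.46, adjusted p = 0.0601), and LDHB had a difference of -0.95 (SE 0.40, adjusted p = 0.197). TIMM8A, IMMT, COA5, LDHA and LDHB, which did not pass, were picked after their values were seen. Of the electron carriers and ubiquinone genes, 4 of 6 had a lower mean in stroma, of the transcription and biogenesis regulators 4 of 7, and of the oxygen and glycolysis genes 2 of 5.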

How the data were processed

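The 12 arrays (6 of epithelium and 6 of stroma, paired by cow) were analysed from the log2 values that the authors deposited, which the methods say were made by RMA with quantile normalization across 24 arrays, these 12 among them. Detection calls were not used here. Depth does not apply to arrays, and the number of cows limits the precision.

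Symbols came from the annotation of the array. A probe set that names several symbols entered the fit and counts for none of them. All 81 member symbols were found by gene ID in the reference annotation. No sequences of the genes were used here.

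The brightest 10031 of 24016 probe sets other than controls, by mean over the 12 arrays, were tested, as many as the study kept by detection calls. Fits used limma 3.58.1 in R 4.3.3 (tables handled with data.table, version 1.17.8) with tissue and cow as fixed terms, and p values were adjusted by Benjamini-Hochberg over all of them at a threshold of 0.05. The series design states that both tissues came from each of 6 animals, and shared replicate numbers and lactation numbers in the labels set the pairs. For each gene the tested probe set with 1 symbol that was brightest was read, which gave 5222 genes. Figures were drawn with matplotlib 3.10.9 in Python 3.11.15. The fit was tested on simulated data.

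Named were members past the threshold, and in each complex the 4 largest differences and the largest in the opposite direction. Core subunits and isoforms or related genes were also named. So were genes whose tested probe sets differed in sign or by over 1, and pathway genes past the threshold. Other named genes were chosen after their values were seen. The members, gene lists and tests were chosen with earlier results of these data known. Alternatives were no cow block, cow as a random block, an intensity trend with a robust prior, other filters, other scaling, the mean over probe sets, no shared-probe sets, NDUFA4 and NDUFA4L2 counted in complex IV, each cow left out, and cows 5 and 6 left out. Leaving out cows 4, 5 and 6 was added after seeing the data.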

Additional observations from a re-analysis of the deposited data

Results flagged for a closer look

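In 4 of 82 gene and tissue groups checked, 1 array lay apart from the other 5 by more than Dixon's criterion allows, and chance flags about 1 in 20 groups. In the epithelium of cow 3, ATP5F1D was 6.43 against 3.90 to 4.49 in the other cows, ATP5MC3 was 8.41 against 6.93 to 7.40, and UQCRQ was 7.59 against 3.69 to 4.55. In the stroma of cow 2, ATP5F1C was 6.38 against 7.08 to 7.44. The epithelium of cow 3 had the smallest gap between the 3′ and 5′ probe sets of GAPDH, 0.93, and the lowest mean correlation with the other epithelial arrays, 0.840. Their part in these values was not tested.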

How the results depend on the processing

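Numbers of calls moved most. As reported, 2 member probe sets and 1 member gene were higher in epithelium. Without the cow block the counts were 3 and 2, with cow as a random block 6 and 5, with a trended and robust prior 3 and 2, among the brightest 5000 probe sets 1 and 1, after centring 0 and 0, without cows 5 and 6 together 1 and 1 (ATP5PO in place of ATP5MC2 and ATP5MG), and without cows 4, 5 and 6 together 0 and 0. When the probe sets of a gene were averaged, 2 genes passed. With 1 cow left out, the probe sets ran from 0 to 2 and the genes from 0 to 2, with NDUFV3 alone called without cow 3, NDUFB3 alone without cow 4, and ATP5MC2 and ATP5PO without cow 5. No member was higher in stroma under any of these settings. Without the cow block COX5A was added, the random block added COX5A, COX7C, COX8A and SDHC, and the trended prior added COX7A2. Without a filter the gene that passed was NDUFA8. The median differences over all members and over complexes I, II, IV and V stayed below 0 under each setting, and over all members with 1 cow left out ran from -0.61 to -0.37.

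Of the named genes, those that changed sign lay close to 0 or scattered widely. After quantile normalization again, COX7A2L was at 0.010 and UQCRC1 at 0.035, and after centring COX7A2L was at 0.13, SDHD at 0.11 and UQCRC1 at 0.10. With 1 cow left out, COX7A2L ran from -0.36 to 0.26, SDHD from -0.35 to 0.28, UQCRC1 from -0.28 to 0.10, ATP5F1B from -1.05 to 0.12 (above 0 without cow 2) and UQCRC2 from -0.21 (without cow 3) to 0.68. SDHB was at 0.11 without cows 5 and 6 and at 0.034 without cows 4, 5 and 6, where COX8B was at 0.31. The cause of these changes was not tested.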
